A study of Triticum aestivum with 18 samples.

Results

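The response of wheat root apices to aluminium (Al) was compared between 2 wheat-rye addition lines, 3R and 6R, as a line-by-treatment interaction. The comparison used the 12 samples labelled 3R or 6R out of the 18 samples of the series, which sit on 6 of the 9 arrays. An addition line holds the complete genome of bread wheat (Triticum aestivum) and, beside it, 1 pair of chromosomes of rye (Secale cereale), here chromosome 3R or 6R. Both lines therefore share the wheat background, and what differs between them by label is which rye pair was added. The groups were 3R control, 3R Al, 6R control and 6R Al, with 3 samples each. Plants were 5 days old at harvest and had spent their last 24 h in acid nutrient solution that held 200 µM AlCl3 or none, and each sample pooled 9 root tips of 1 cm. The other 6 samples, of wheat cultivar Chinese Spring (CS) without rye chromosomes, entered the shared estimates of spread and of the dye effect. They are also given beside the results. The labels call the 3 samples of a group biological replicates without naming separate cultures, so p-values measure the spread between these samples.

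In acid soil Al dissolves as an ion that enters the root tip and stops its elongation. Rye is the most Al-tolerant of the small-grain cereals, and loci for tolerance have been mapped to several of its chromosomes, 3R and 6R among them. Known tolerance routes include the release of organic acid anions through ALMT and MATE transporters, cell wall changes and antioxidant enzymes. No probe named here belonged to an ALMT or MATE gene, so these transporters were not analysed here.

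Treated and untreated RNA of a replicate shared 1 array, each in its own dye (Cy3 or Hyper 5). The Al response is therefore the log2 ratio between the channels of an array, Al over control, and the quantity compared is the response of 3R minus that of 6R. A difference above 0 means a weaker fall or a stronger rise in 3R, and one below 0 a weaker rise or a stronger fall in 3R. Al RNA carried Cy3 on 2 arrays and Hyper 5 on 1 array of either line. Replicates 1 and 2 of both lines were on slide 1 and replicate 3 of both on slide 3. Dye and slide were thus balanced between the lines, and each 3R array has a 6R array of the same slide and dye orientation. All 45220 rows were tested with limma, and a probe counts as called where its p, adjusted by Benjamini and Hochberg, is under 0.05. Fitted responses have the dye effect removed, which is why they differ from the plain means of the 3 ratios of a line.

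Replicate samples correlated at 0.949 to 0.980 over all probes. Array ratios of 3R and 6R correlated at 0.814 to 0.892 over probes where the dye orientation was the same and at 0.0603 to 0.212 where it was opposite, which shows how much of a single ratio is dye. The sorted values of samples within a line differed by at most 0.0064, and those of 3R and 6R by up to 0.181, so the lines look normalized separately. The markers fixed for the root apex were partly informative. The 14 tubulin probes were bright in all 4 groups (group medians 12.7 to 13.2), but 5 of 10 histone and cell cycle probes lay under a log2 level of 6.3, near the floor of the values. Of the markers of other tissues, 6 of 28 seed storage probes reached 6.3, and 22 of 33 photosynthesis probes did, most of them of the plastid gene rbcL. In whole root tips fewer cells of a type and less RNA per cell cannot be told apart.

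The 3R line had the weaker Al response, in both directions. A log2 ratio larger than 1 in size was found for 9.86%, 9.96% and 10.2% of the probes on the 3 arrays of 3R. On the 6R arrays the shares were 16.3%, 13.1% and 15.6%. The standard deviation of the ratios was 0.617, 0.627 and 0.624 on the 3R arrays and 0.825, 0.755 and 0.803 on the 6R arrays. Every 3R array lay below every 6R array in both measures. Both were taken on single-array ratios that still hold the dye effect, so they do not measure the Al response alone. Whether the spread due to dye differed between the lines was not tested. Tested line by line, 3485 probes rose and 3250 fell in 3R (7.71% and 7.19%), against 6214 and 6000 in 6R (13.7% and 13.3%).

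The size of the response was then read on probes chosen without the 3R and 6R samples. These were the 3123 probes whose mean ratio in CS was at least 1 in size with 1 sign on all 3 CS arrays. Turned to the CS sign and averaged over these probes, the response was 1.06, 1.04 and 1.12 on the 3R arrays and 1.57, 1.60 and 1.69 on the 6R arrays. The groups did not overlap. The means were 1.07 ± 0.04 in 3R and 1.62 ± 0.06 in 6R (SD, n = 3 arrays each), a difference of -0.54. An exact permutation test, two-sided, gave p = 0.1, the smallest that 3 against 3 arrays allow. In each of the 3 pairs of arrays matched on slide and dye, 3R reached 66.0% to 66.6% of the 6R value. The CS arrays averaged 1.78, a value that the choice on CS itself raises.

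The shortfall of 3R was larger for falls than for rises. For the 1777 probes with a rise in CS, the mean response was 1.20 ± 0.08 in 3R and 1.60 ± 0.09 in 6R (SD, n = 3), so that 3R reached 74.9% of 6R. For the 1346 probes with a fall in CS it was 0.91 ± 0.12 against 1.64 ± 0.23, or 55.4%. The order was the same in all 3 matched pairs of arrays, at 72.3% for rises and 59.6% for falls, 72.3% and 55.9%, and 80.3% and 51.2%. Both sets gave exact permutation p = 0.1, again the smallest possible. The difference between rises and falls was not itself tested beyond these 3 pairs.

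**Figure D1:**
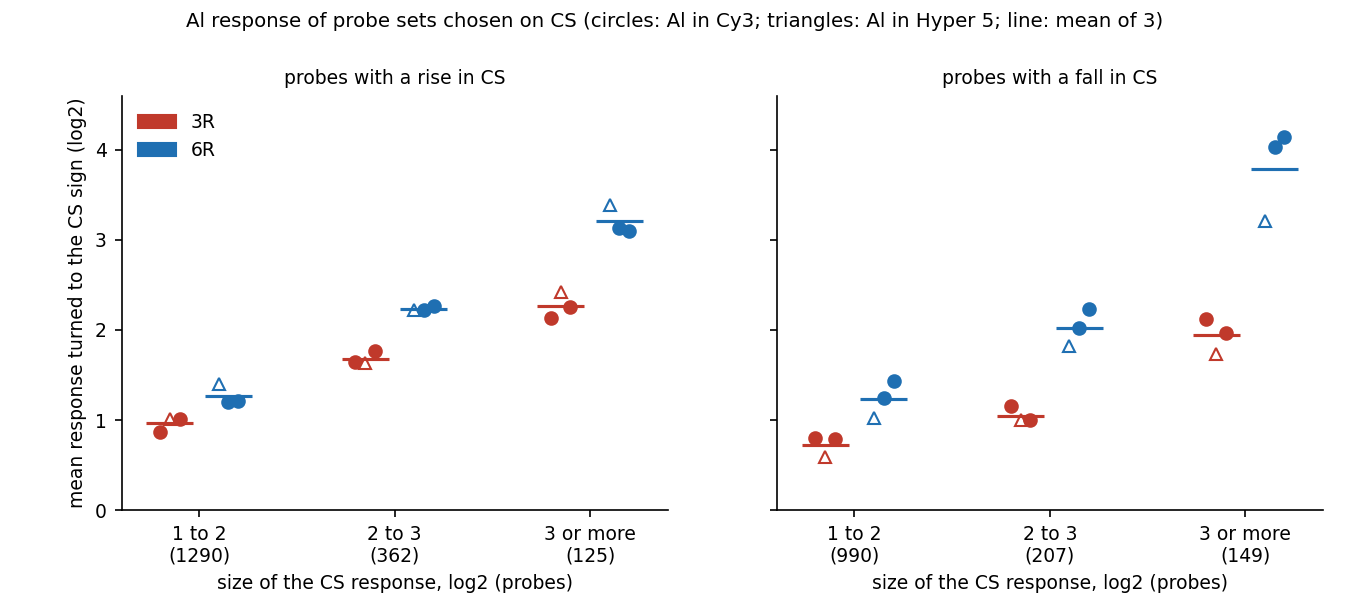
Mean Al response (log2, turned to the sign in CS) of probe sets chosen on CS, by the size of the CS response, for rises (left) and falls (right). Each point is 1 array of 3R (red) or 6R (blue), circles have Al in Cy3 and triangles in Hyper 5, lines are means of 3, and the 3R arrays sit below the 6R arrays in every set.

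The strongest responses showed the same gap. Among the 149 probes that fell by 3 or more log2 units in CS, the mean fall was 1.94 in 3R and 3.79 in 6R, and 3R reached 51.1% of 6R. Among the 125 probes that rose by as much, the means were 2.27 and 3.21, or 70.8%. For the weakest sets, with a CS response between 1 and 2, 3R reached 58.6% for falls and 75.8% for rises. More probes of the rising set lay near the floor in 3R control samples (7.37%) than in 6R control samples (3.88%). Of the falling set, 4.68% lay near it in 6R Al samples and 2.38% in 3R Al samples, and a floor shrinks a response. The part of the floor in the gap was not tested.

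Probe by probe, 492 of 45220 rows (1.09%) differed in their Al response between the lines. The difference was above 0 in 310 (0.686%) and below 0 in 182 (0.402%), and an unadjusted p under 0.05 was found for 4889 (10.8%). The count depends on single arrays and on the model. It was 86, 229 and 93 without replicate 1, 2 and 3 of 3R, and 200, 216 and 511 without replicate 1, 2 and 3 of 6R. It was 41 with no dye term and 16 when the shared array was ignored. With slide as a further block 154 probes passed.

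In 467 of the 492 probes (94.9%) the fitted response was smaller in 3R than in 6R. The same held for 62.5% of all probes and for 83.7% of the 12975 probes called in either line. The size of the difference had a median of 1.30 and ranged from 0.458 to 5.58, with 349 probes above 1 and 102 above 2. The 3 ratios of 3R and the 3 of 6R did not overlap in 368 of the 492, against 8.89% of all probes. The mean difference over the 310 probes above 0 was 1.55 on slide 1 and 1.72 on slide 3, and over the 182 below 0 it was -1.33 and -1.18. The probes were called on these same arrays, so the sign on each slide and the lack of overlap follow largely from the call and are given as a description.

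Most of the called probes fell or rose in both lines, but less in 3R. A fall was called in both lines for 196 probes, 195 of them with a weaker fall in 3R, and their median response was -1.12 in 3R and -2.95 in 6R. A rise was called in both for 109 probes, 104 of them weaker in 3R, with medians of 1.11 and 2.27. A fall was called in 6R alone for 91 probes, with medians of -0.10 in 3R and -1.53 in 6R. A rise was called in 6R alone for 69, with medians of 0.10 and 1.31, and 32 of these lay near the floor in some group. Only 13 probes were called in 3R alone, and 14 moved in opposite directions. For all these classes the difference between the lines is the called quantity.

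**Figure D2:**
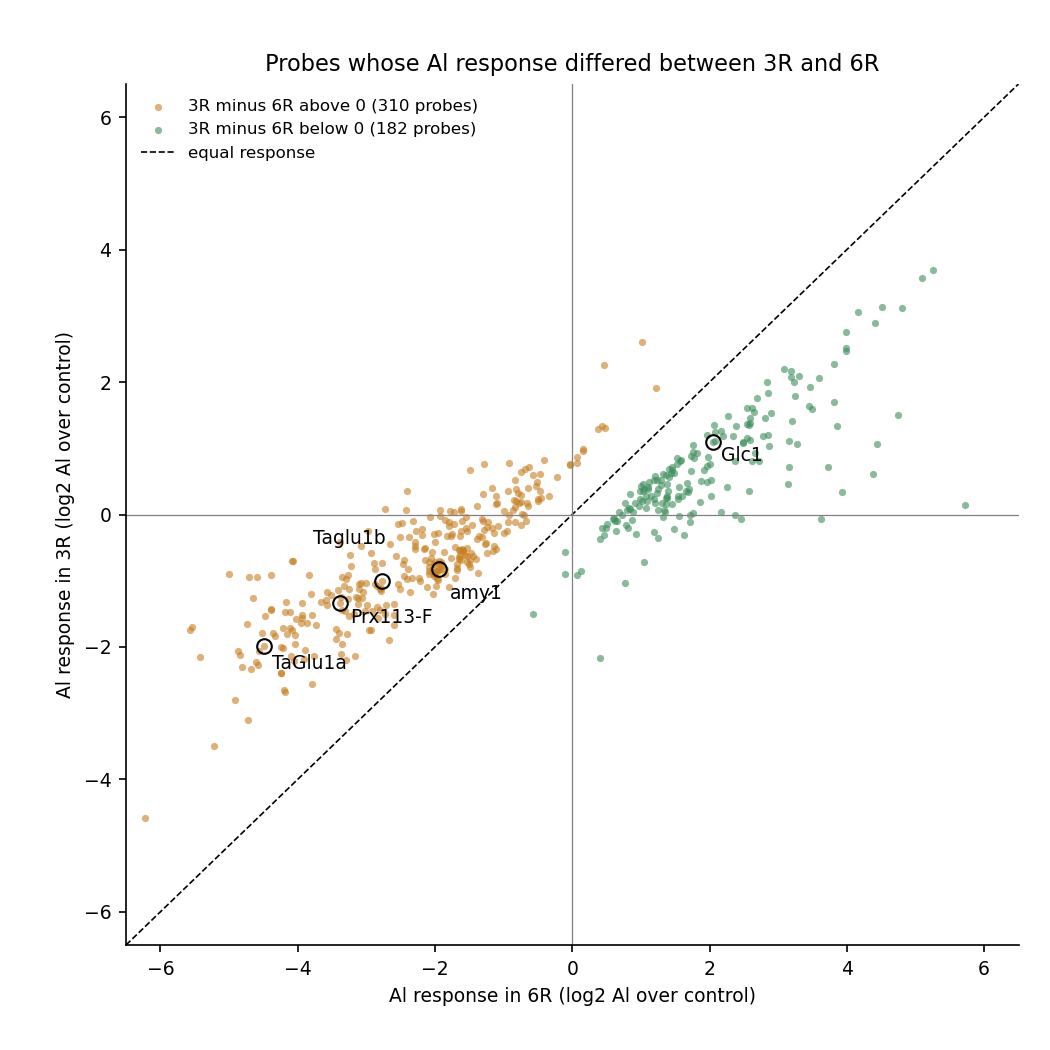
Fitted Al response (log2 Al over control) in 6R (x axis) and 3R (y axis) of the 492 probes whose response differed, with 310 differences above 0 in orange and 182 below 0 in green. Most points lie between the dashed line of equal response and the horizontal line of no response in 3R, and the 5 circled probes are named genes that passed.

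The gap between the lines lay mainly in the Al samples. For the 310 probes above 0, the level of 3R minus that of 6R had a median of -0.20 in control samples and 1.20 in Al samples. For the 182 below 0 the medians were -0.28 and -1.48. The Al samples held the larger of both gaps in 426 of the 492 probes and the control samples in 66. Over all probes the median gap was -0.03 in both conditions. These gaps compare levels across lines that look normalized separately. With all columns quantile normalized together they were -0.11 and 1.36 above 0, and -0.17 and -1.38 below 0.

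Among genes with a descriptive name, TaGlu1a of benzoxazinoid defence had the largest called difference. TaGlu1a and Taglu1b encode beta-glucosidases that release toxic benzoxazinoids from their stored glucosides. All 5 probes of the 2 genes passed, with differences of 1.78 to 2.51 (median 2.24), against a median of -0.01 over all probes. Among the 280 rows with a descriptive name 9 passed (3.21%), these 5 among them, against 1.09% of all probes. Most of the 5 are probes of TaGlu1a, and probes of 1 gene are not independent measurements of it.

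TaGlu1a (probe 27244) stood at 14.5, 15.4 and 14.2 in 3R control samples and at 11.9, 13.8 and 11.8 in 3R Al samples, as log2 intensity. In 6R it stood at 15.6, 14.1 and 14.6 in control samples and at 12.0, 8.79 and 9.33 in Al samples. Control levels of the lines overlapped, while 2 of the 3 Al samples of 6R lay far below every Al sample of 3R. The array ratios were -2.61, -1.63 and -2.41 in 3R and -3.58, -5.32 and -5.28 in 6R, with no overlap. The fitted fall was 3.96-fold in 3R and 22.5-fold in 6R, a difference of 2.51 ± 0.21 on the log2 scale (SE, n = 3 arrays per line, limma adjusted p = 0.0039). The difference was 2.33 on slide 1 and 2.86 on slide 3. Beside them, CS had a fitted response of -4.08. TaGlu1a passed without any single array of 3R or 6R, but not with no dye term (limma adjusted p = 0.533), a variance trend (0.148), the array as a random block (0.122) or the array ignored (1).

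Taglu1b (probe 28242) gave array ratios of -2.31, -0.20 and -1.70 in 3R and -1.27, -4.33 and -3.94 in 6R. The lines overlapped through their arrays with Al in Hyper 5, which read higher in both lines. Within each matched pair 3R lay above 6R. The fitted response was -0.998 in 3R and -2.77 in 6R, a difference of 1.78 ± 0.27 (limma adjusted p = 0.031). The call was lost without replicate 1 or 3 of 3R or any replicate of 6R, with adjusted p from 0.0608 to 0.139 by limma.

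**Figure D3:**
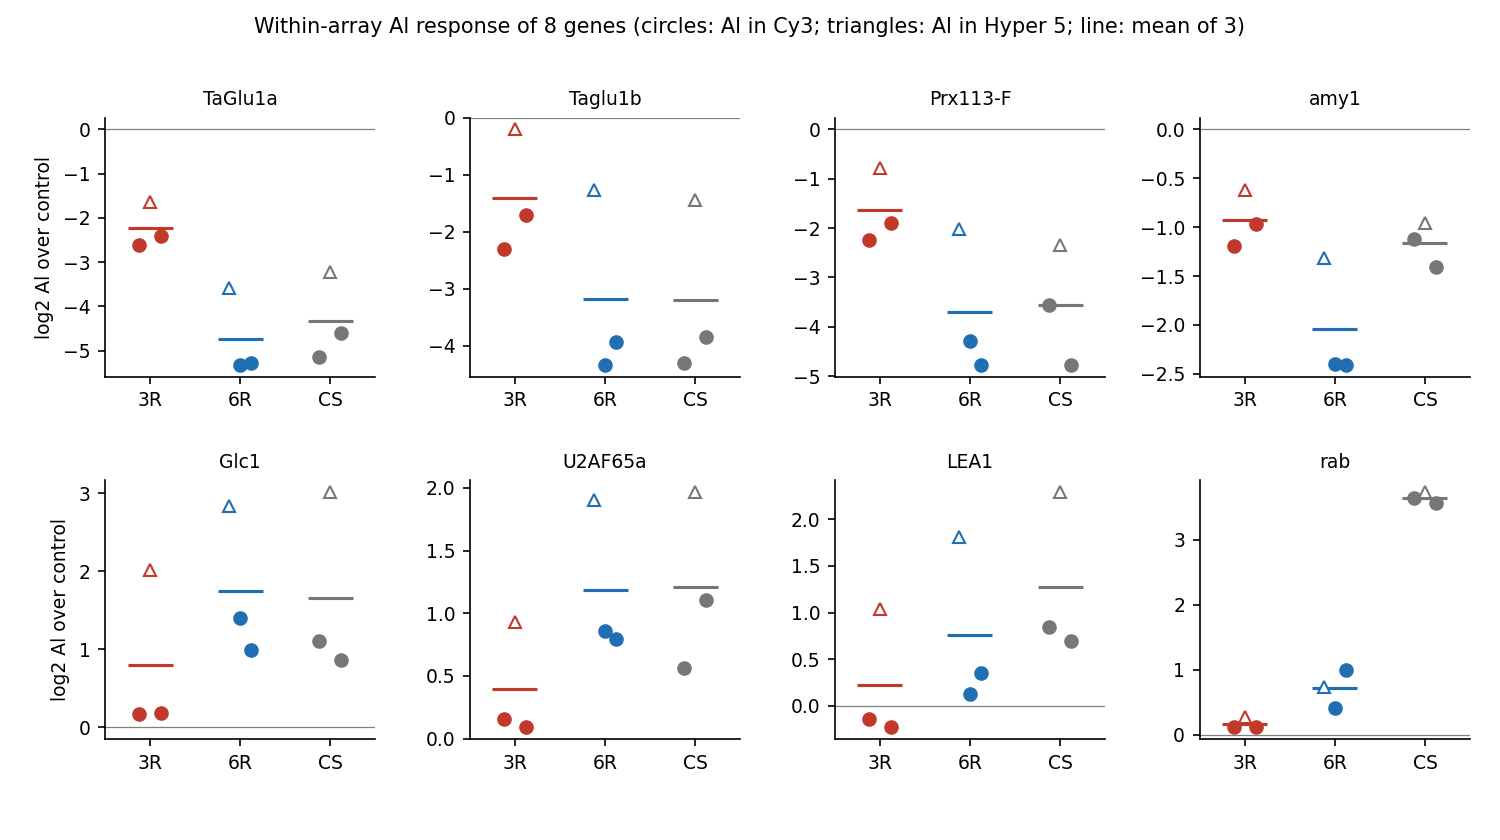
Within-array Al response (log2 Al over control) of 8 named genes on the 3 arrays of 3R, 6R and CS, with circles for Al in Cy3, triangles for Al in Hyper 5 and lines for plain means of 3. TaGlu1a and amy1 show no overlap of 3R with 6R, Glc1 lies lower in 3R within each dye orientation, and U2AF65a, LEA1 and rab did not pass.

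The peroxidase gene Prx113-F followed the same pattern with less precision. Class III peroxidases use hydrogen peroxide in the cell wall and take part in its cross-linking. Prx113-F (probe 25823) stood at 12.2, 11.1 and 11.3 in 3R control samples and at 10.0, 10.4 and 9.41 in 3R Al samples. In 6R it stood at 11.4, 11.1 and 12.7 in control samples and at 9.42, 6.78 and 7.91 in Al samples. All 3 Al samples of 3R were near or above the highest Al sample of 6R. The array ratios were -2.24, -0.79 and -1.91 in 3R and -2.03, -4.30 and -4.77 in 6R. These overlapped, although within each matched pair 3R lay above 6R. The fitted fall was 2.52-fold in 3R and 10.4-fold in 6R, a difference of 2.05 ± 0.36 (SE, n = 3, limma adjusted p = 0.0499). Its other 2 probes had differences of 0.35 and 0.40 and did not pass (adjusted p = 0.888 for both), so the probes of this gene disagree. The call was lost without any single array of 3R or 6R (limma adjusted p from 0.0793 to 0.223). Prx1, the other gene of the list of 4 peroxidase probes, had a difference of -0.08.

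In starch and sugar metabolism 2 of 26 probes passed, both above 0 and both of amy1, against 1.09% of all probes. The median difference of the list was 0.19. The gene amy1 encodes an alpha-amylase, an enzyme that breaks down starch. Its first probe stood at 7.79, 7.66 and 7.19 in 3R control samples and at 6.59, 7.04 and 6.22 in 3R Al samples. In 6R it stood at 7.90, 8.69 and 8.44 in control samples and at 6.58, 6.29 and 6.03 in Al samples. The Al samples of the lines overlapped close to the floor, and the control samples of 6R lay above those of 3R. The level of 3R minus that of 6R was -0.79 in control samples and 0.32 in Al samples. At this probe the larger gap thus lay in the control samples. The array ratios (probe 25937) were -1.20, -0.62 and -0.97 in 3R and -1.32, -2.40 and -2.41 in 6R. The lines did not overlap, although replicate 1 of 3R and replicate 1 of 6R, which have opposite dye orientations, lay close together. The fitted response was -0.83 in 3R and -1.94 in 6R, a difference of 1.11 ± 0.18 (limma adjusted p = 0.035), whose size is not exact near the floor. The second probe differed by 1.37 (limma adjusted p = 0.042) and the third by 0.90 without passing. At the second probe the larger gap lay in the Al samples (0.81, against -0.57 in control samples), so the 2 called probes disagree on this. Leaving out any array but replicate 1 of 6R ended the call of the first probe (limma adjusted p from 0.0772 to 0.17). PMM, a phosphomannomutase gene, differed by 0.97 (adjusted p = 0.071) and waxy, the granule-bound starch synthase gene, by 0.33 (0.471). 1-FEH, a fructan exohydrolase gene, differed by 0.85 (adjusted p = 0.415).

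Glc1 was the one descriptive gene that passed below 0. It was placed with the pathogenesis-related proteins as a glucanase gene. Of the 11 probes of that list 1 passed, where 1.09% of all probes did, and the list median was 0.06. Glc1 (probe 8130) stood at 12.3, 10.8 and 11.9 in 3R control samples and at 12.4, 12.8 and 12.1 in 3R Al samples. In 6R it stood at 10.7, 12.1 and 11.6 in control samples and at 13.6, 13.5 and 12.6 in Al samples. The control levels overlapped, and 2 Al samples of 6R lay above all those of 3R. The array ratios were 0.18, 2.02 and 0.19 in 3R and 2.83, 1.40 and 0.997 in 6R. The lines overlapped, and within each matched pair 3R lay below 6R. Both 3R arrays with Al in Cy3 showed almost no rise, and the Hyper 5 array showed most of it. The fitted rise was 2.15-fold in 3R and 4.14-fold in 6R, a difference of -0.95 ± 0.14 (SE, n = 3, limma adjusted p = 0.028). The second Glc1 probe differed by -0.57 and did not pass. The call of the first was kept only without replicate 3 of 6R among the 6 single arrays left out (adjusted p from 0.0416 to 0.141 by limma).

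**Figure D4:**
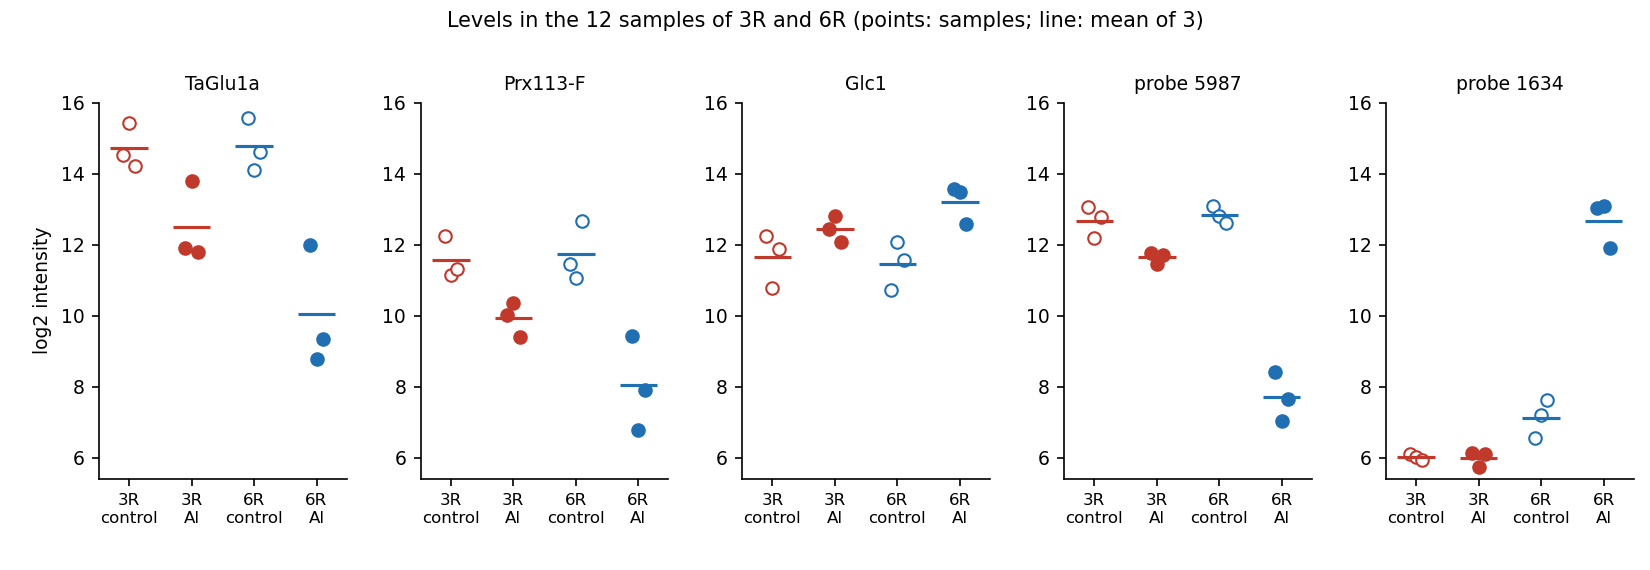
Level (log2 intensity) of 5 probes in each of the 12 samples, open for control and filled for Al, with 3R in red, 6R in blue and lines for means of 3. The control levels of TaGlu1a, Prx113-F, Glc1 and probe 5987 overlap between lines, the Al levels of probe 5987 lie apart, and probe 1634 stays near the floor in all 6 samples of 3R.

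Gibberellins promote growth, and GA20-oxidases and GA3-oxidases catalyse the last steps of their synthesis. None of the 5 probes of this list passed, where 1.09% of all probes did. All 5 had a difference above 0, with a median of 1.12 and a range of 0.28 to 1.45. GA20ox1d had array ratios of -1.15, -1.97 and -1.12 in 3R and -2.44, -3.13 and -3.02 in 6R. The lines did not overlap, and the difference was 1.45 ± 0.36 (limma adjusted p = 0.153). GA20ox1a differed by 1.12 (adjusted p = 0.137) and GA20ox1b by 1.18 (0.255). The probes of these 3 genes lay near the floor in some group, so these sizes are not exact. For GA20ox1a (probe 22328) the level of 3R minus that of 6R was -0.62 in control samples and 0.50 in Al samples. It was -0.79 and 0.67 for GA20ox1d, and -0.997 and 0.18 for GA20ox1b. At all 3 probes the larger gap thus lay in the control samples. GA3ox2-2 differed by 0.28 (95% interval -0.15 to 0.70).

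No probe passed in the lists of tubulins, the methyl cycle and proton pumps. Over all probes 1.09% passed, a share at which lists this short can hold no call. Of 14 beta-tubulin probes none passed and the median was 0.40. An unadjusted limma p under 0.05 was found for 9 of the 14, against 10.8% of all probes. The 4 probes of tubb1 differed by 0.40 to 0.72. The 3 probes of tubb3 differed by -0.29 (probe 21178, limma adjusted p = 0.29), -0.11 and 0.43, and the 2 of Tubb4 by -0.17 and -0.10. Of 12 methyl cycle probes none passed and the median was 0.55. All 7 probes of WPEAMT, which methylates phosphoethanolamine on the way to choline, lay between 0.54 and 1.00, and those of SAMS, an S-adenosylmethionine synthetase, lay between -0.33 and -0.04, with PIMT at -0.24. All 5 probes of ha1, a plasma membrane proton pump, lay between 0.30 and 0.84 (median 0.80) and none passed. At probe 7495 of tubb1 the level of 3R minus that of 6R was -0.62 in control and -0.08 in Al samples. At probe 31740 of ha1 it was -0.89 and -0.05, so both gaps lay mainly in control samples. The gap was larger in Al samples at probe 19669 of tubb2 (-0.06 and 0.34) and probe 32872 of WPEAMT (-0.26 and 0.47). Probes of 1 gene are not independent measurements of it.

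The chaperone list had no call among 8 probes, where 1.09% of all probes were called, and a median of 0.14. Its largest differences were 0.88 for PDI, a protein disulfide isomerase (limma adjusted p = 0.102), 0.81 for the small heat shock gene hsp16.9A (0.178) and 0.69 for the immunophilin FKBP70 (0.222). Other probes of these genes differed less or in the other direction, at 0.17 for PDI, -0.16 and -0.27 for hsp16.9A, and 0.02 and 0.10 for FKBP70. At the first hsp16.9A probe the level of 3R minus that of 6R was -1.13 in control and -0.32 in Al samples. At the first probes of PDI (-0.13 and 0.74) and FKBP70 (-0.28 and 0.41) the Al samples held the larger gap. Among 23 probes of the splicing and translation list none passed and the median was 0.06. Matched by symbol, the list includes WSZ2a and WSZ1c, while WSZ2b of the same name series fell in the seed storage list. Its size and median thus do not describe splicing and translation factors alone. U2AF65a, a subunit of the factor that binds the 3′ splice site region, had ratios of 0.16, 0.93 and 0.09 in 3R and 1.90, 0.86 and 0.79 in 6R. Its difference was -0.79 ± 0.15 and did not pass (limma adjusted p = 0.066). Eif4B and the elongation factor gene TEF1 differed by 0.45 and 0.62 (adjusted p = 0.298 and 0.36). The histone and cell cycle list had no call among 10 probes, a median of 0.04, and its largest values at H2A-3 (0.79) and H2A-2 (0.58), whose other probes lay at 0.05 and 0.03.

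**Figure D5:**
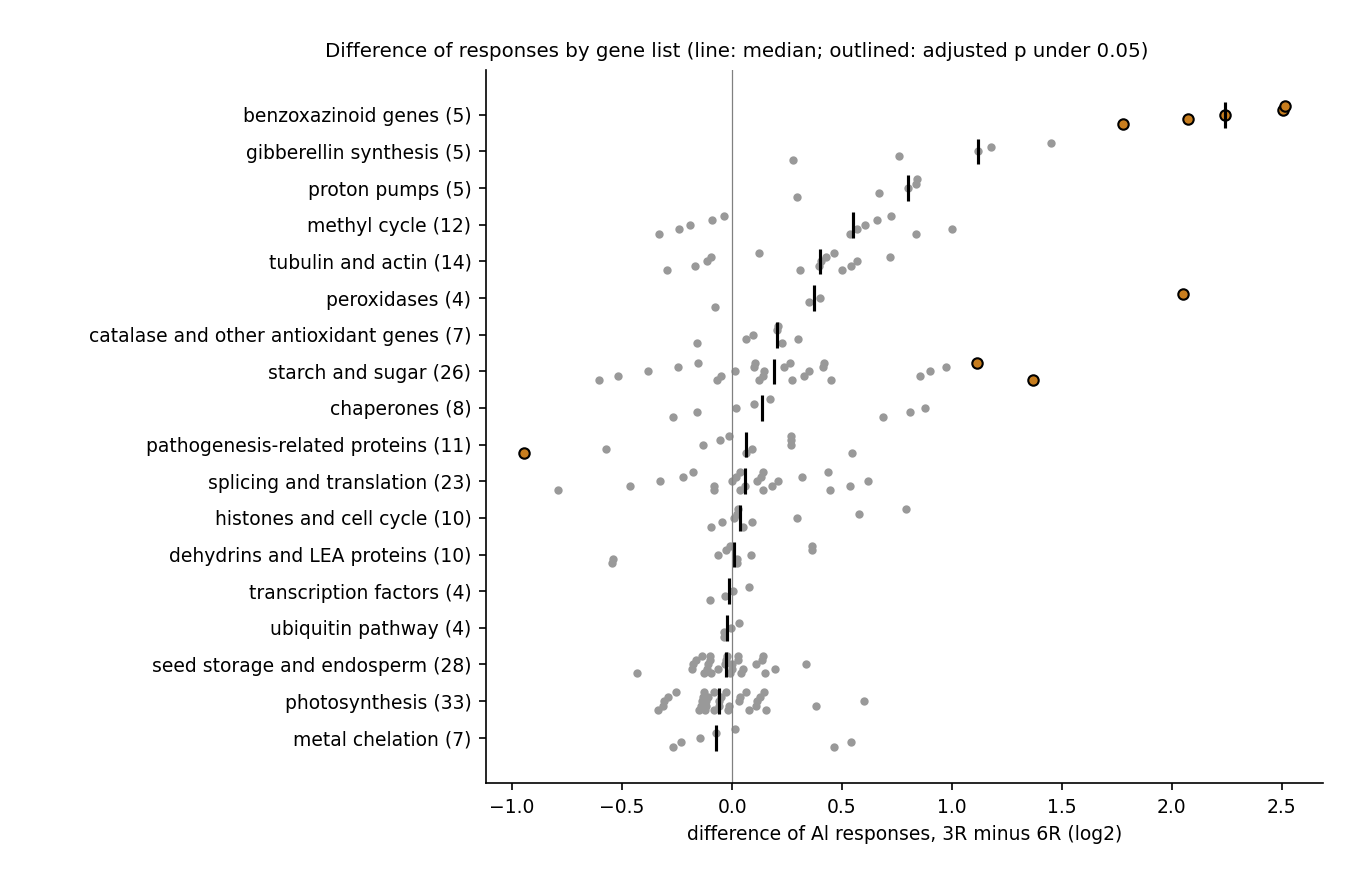
Difference of the Al response, 3R minus 6R (log2), of each probe of the gene lists with at least 4 probes, with the number of probes in parentheses, a line at the median and outlined points for an adjusted p under 0.05. The 5 benzoxazinoid probes lie at 1.78 and above, the other outlined points are Prx113-F, Glc1 and 2 probes of amy1, and photosynthesis and seed storage centre near 0.

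Stress and metal lists held no called difference, where 1.09% of all probes were called. At that share lists this short can hold no call, so its absence says little about these families. Of 10 dehydrin and LEA probes, whose proteins protect cells that lose water, none passed and the median was 0.01. The dehydrin gene rab (probe 33139) stood between 6.05 and 6.40 in all 6 samples of 3R and reached 6.80, 6.75 and 7.31 in the Al samples of 6R. The Al samples of 6R lay above all others, at levels near the floor, and the difference was -0.55 ± 0.15 (limma adjusted p = 0.188). CS had a response of 3.66 at this probe. LEA1 differed by -0.54 (adjusted p = 0.105) at 1 probe and by 0.36 at the other. Of 7 metal chelation probes none passed (median -0.07). They include PCS1, the phytochelatin synthase gene, at -0.23, TaDMAS1, which makes the iron chelator deoxymugineic acid, at 0.54, and wali1, named for its induction by Al in wheat, at -0.07 (95% interval -0.93 to 0.78). The wali1 probe read 14.8 or more in 10 of the 12 samples, close to the highest value of the tables (15.6), and its ratio was above 0 only on the Hyper 5 array of each line. Of 7 catalase and thioredoxin probes none passed, with a median of 0.20, Trx-H at 0.30 and wcat1 at -0.16. The 2 COMT1 probes of lignin synthesis, the 2 of the lipid transfer protein LTP3, the 4 transcription factor probes with WZF1, and the 4 UBC1 probes of the ubiquitin pathway held no call.

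A set of named genes responded in both lines with no called difference. Such were 30 of the 117 genes with a descriptive name, with 38 of their 280 probes. The share of all probes that met the same rule is not given here. The examples that follow were chosen after their values were seen. PR5, a thaumatin-like protein, had ratios of 3.50, 4.68 and 3.88 in 3R and 3.59, 3.53 and 4.15 in 6R. The lines overlapped, and the fitted rise was 17.1-fold in 3R and 14.2-fold in 6R, with a difference of 0.27 (95% interval -0.38 to 0.91). The catalase gene wcat1 rose 3.11-fold and 3.47-fold, with a difference of -0.16 (-0.69 to 0.38). WZF1, a zinc finger gene, rose 2.07-fold and 1.96-fold (0.08, -0.61 to 0.77). COMT1 rose 1.84-fold and 2.13-fold (-0.21, -0.82 to 0.40), and PIMT, which repairs damaged proteins, 1.67-fold and 1.98-fold (-0.24, -0.54 to 0.06). The second probes of wcat1 and COMT1 had no called response in either line. Of the other WZF1 probes, probe 33851 had none in either line and probe 15677 had a called rise in 6R alone. The difference was 0.19 for ATI (-0.43 to 0.82) and 0.03 for WSZ2b (-0.59 to 0.65). A p that misses the threshold does not show that the lines act alike.

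Probes without a descriptive name held most of the calls, 467 with no symbol and 16 with a LOC number alone. LOC100136980 had ratios of -2.46, -0.87 and -2.24 in 3R and -2.75, -5.10 and -5.84 in 6R. They did not overlap, and the difference was 2.71 ± 0.31 (limma adjusted p = 0.011). LOC543097 had ratios of 1.29, 2.28 and 1.85 in 3R and 4.06, 3.39 and 2.60 in 6R, again without overlap, and a difference of -1.54 ± 0.26 (adjusted p = 0.043). LOC100136978 had a fitted response of 0.65 in 3R and -0.74 in 6R. The difference was 1.39 ± 0.24 (limma adjusted p = 0.047). The rise in 3R passed narrowly at this probe (limma adjusted p = 0.0446, ratios of -0.10, 1.02 and 0.40) and did not pass at the second called probe (0.40, adjusted p = 0.26), while the fall in 6R passed at both. Of the 16 probes with a LOC number, 14 lay above 0 and 2 below.

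The largest differences were on unnamed probes. Probe 5987 stood at 13.1, 12.2 and 12.8 in 3R control samples and at 11.8, 11.4 and 11.7 in 3R Al samples. In 6R it stood at 13.1, 12.8 and 12.6 in control samples and at 8.40, 7.03 and 7.65 in Al samples. Controls of the lines overlapped, and the Al samples were far apart. The fall was 1.85-fold in 3R and 31.9-fold in 6R, a difference of 4.11 ± 0.26 (SE, n = 3, limma adjusted p = 0.0022). Probe 6129 fell 3.24-fold and 46.6-fold, a difference of 3.85 ± 0.36 (limma adjusted p = 0.0057). In the rising direction, probe 1634 stood between 5.74 and 6.12 in all 6 samples of 3R. In 6R it stood at 6.55, 7.19 and 7.62 in control samples and at 13.0, 13.1 and 11.9 in Al samples. It thus lay near the floor in 3R with or without Al, so its response in 3R was not measurable and the fitted difference of -5.58 ± 0.60 (limma adjusted p = 0.0088) is not an exact size. CS had a response of 5.18. Probe 16576 had fitted responses of 0.61 in 3R and 4.38 in 6R, a difference of -3.77 ± 0.20 (limma adjusted p = 0.0012), from control levels of 6.13 to 6.47 in 3R. These lie near the floor, so this size is not exact either.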

How the data were processed

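Root apex RNA of 3R, 6R and CS was measured on 9 arrays of 2 channels, each channel deposited as a sample. The deposited values are log2 intensities of 45220 rows, and limma is named in the submitters' processing notes. Which background correction and which normalization were used is not given in the sources here. Their number, 3 arrays per line, limits the precision. Titles and scanner file names of 6R swap replicates 1 and 2, and the titles were followed. Slides were read from those names. Within-array ratios were fitted with limma 3.58.1 (R 4.3.3), with a mean per line and a dye term (5 residual degrees of freedom, prior 2.61). Residuals of the 2 samples of an array, which pairs them by design, correlated at 0.722 to 0.855. The fit was tested on simulated data, where the share of false calls was above the nominal level and small differences were often missed.

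Symbols came from the platform table (996 rows, none with several symbols, 44224 without). A gene table of assembly GCF_018294505.1 held 475 of the 553 symbols and served only to name them, and 280 rows got a descriptive name. Named were, in each direction, up to 12 descriptive genes past the threshold without overlap of ratios; fewer than 5 passed, so the 5 of smallest p were named, with 1 probe per gene. Added were up to 2 LOC numbers and 2 unnamed probes per direction and up to 4 examples per list. Lists for cell wall loosening, aquaporins, ion transporters, hormone signalling and kinases matched no probe. Members and lists were chosen with earlier results of these data known.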

Additional observations from a re-analysis of the deposited data

Results flagged for a closer look

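The Al response differed between 3R and 6R, by the test of the difference itself, at 492 probes (limma, adjusted p under 0.05), 1.09% of those tested. Among named genes the difference of 3R minus 6R (log2) was 2.51 for TaGlu1a, 1.78 for Taglu1b, 2.05 for Prx113-F, 1.11 for amy1 and -0.946 for Glc1. It was 2.71 for LOC100136980, 1.39 for LOC100136978 and -1.54 for LOC543097. Among unnamed probes it was 4.11 for probe 5987, 3.85 for probe 6129, -5.58 for probe 1634 and -3.77 for probe 16576. The last 2 sizes are not exact, because the 3R samples of probe 1634 and the 3R control samples of probe 16576 lay near the floor of the values. Groups of 3 samples were too small for a check of single outlying samples.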

How the results depend on the processing

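The count of 492 probes was 413 with the 6 arrays of 3R and 6R alone and 41 with no dye term. It was 16 with no replicate block (single channels without the array) and 206 with the replicate block across lines. With slide as a further block 154 passed, with a variance trend 201, and with ratios scaled to the same SD in every array 206. That scaling evens out the spread of the ratios, which still holds the dye effect. It therefore does not remove exactly the difference in the size of the Al response. Leaving out 1 array gave 86 to 511. As settings chosen after seeing the data, 227 passed without the 3 dye-swapped arrays and 222 with arrays matched on slide and dye as pairs. The share of called probes with the smaller response in 3R, 94.9%, was 100% with no replicate block, 98.1% with slide as a block, 83% with scaled ratios and 95.9% to 98.5% without 1 array. The reference response difference of -0.54 ranged from -0.568 to -0.51 without 1 array, and was -0.549 on the same probes without the dye-swapped arrays of 3R and 6R. With the probes chosen again on the 2 other CS arrays (7125 probes) it was -0.303.

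Over 18 alternatives no gene past the threshold changed direction. Probes 5987 and 16576 passed in all 18, probe 6129 in 15, TaGlu1a and probe 1634 in 14, LOC100136980 in 10, amy1 in 6, LOC100136978 in 5, Glc1 in 4, Taglu1b and LOC543097 in 3 and Prx113-F in 2. The sign turned only in genes that did not pass. With scaled ratios this was so for GA3ox2-2 (-0.0871), COMT1 (0.0569), waxy (-0.0405), UBC1 (0.1), wcat1 (0.215), wali1 (0.123) and ATI (-0.0625). Without the dye-swapped arrays it was so for rbcL (0.334), PR5 (-0.144), wcat1 (0.159), wali1 (0.109) and WSZ2b (-0.119). Without 1 array the difference ranged from -0.239 to 0.271 for WZF1, -0.145 to 0.0698 for UBC1, -0.344 to 0.342 for wali1, -0.225 to 0.352 for WSZ2b, -0.687 to 0.264 for rbcL, -0.0726 to 0.561 for PR5, -0.402 to 0.0933 for wcat1 and -0.358 to 0.0128 for COMT1. The cause of these changes was not tested. Values near the floor limit what dim probes can show.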

Other observations

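Of the 492 probes, 14 moved in opposite directions in the lines. A rise in 3R beside a fall in 6R was called for 11, and a fall in 3R beside a rise in 6R for 3. Their median response was 0.58 in 3R and -0.55 in 6R. The array ratios did not overlap in 9 of the 14, against 368 of the 492 called probes and 8.89% of all probes. This lack of overlap follows largely from the call. Besides LOC100136978, 1 of them has a symbol: LOC100038340 (probe 16294) had a fitted response of 0.61 in 3R and -0.47 in 6R, a difference of 1.08 ± 0.13 (limma adjusted p = 0.013). Its second called probe fell in 6R as well, but its response of 0.17 in 3R was not called (limma adjusted p = 0.618). The largest difference among the 14 was 2.04 at probe 33220, with 0.76 in 3R and -1.28 in 6R (limma adjusted p = 0.012).

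A response was called in 3R alone for 13 probes, none with a symbol, 8 with a rise and 5 with a fall. Probe 4367 fell in 3R by a fitted -2.17 beside 0.40 in 6R and -0.20 in CS, a difference of -2.57 (limma adjusted p = 0.0062). Probe 1121 rose by 2.25 in 3R beside 0.47 in 6R and 1.15 in CS, a difference of 1.78 (limma adjusted p = 0.017). These probes were singled out after their values were seen.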
